A study of Mus musculus with 16 samples.

Results

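The amino acid transporters of the solute carrier (SLC) superfamily were followed through mouse liver in 2 experiments. Members were all probe sets whose platform gene symbol began with Slc1a, Slc3a, Slc6a, Slc7a, Slc36a, Slc38a or Slc43a and a number, whatever their values. The rule found 67 probe sets of 43 genes among 22626 tested probe sets, which carry 12393 single-symbol genes. They came from 6 of the 7 families named in the rule: 12 probe sets of 6 genes were Slc1a, 2 probe sets of 2 genes Slc3a, 20 of 15 genes Slc6a, 19 of 13 genes Slc7a, 13 of 6 genes Slc38a and 1 of 1 gene Slc43a. No probe set with an Slc36a symbol was in the annotation used here. For 13 genes several probe sets were present and for 30 genes 1.

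Cells take up amino acids through these proteins, which differ in substrate, ion coupling and direction. The Slc3a genes encode heavy chains that carry Slc7a light chains to the cell surface, where most light chains exchange one amino acid for another. Slc1a members import glutamate or exchange small neutral amino acids, and Slc38a members move glutamine, alanine and related amino acids. Much of the Slc6a family carries neurotransmitters, taurine or creatine as well as amino acids. In the integrated stress response (ISR), kinases such as PERK phosphorylate the translation initiation factor eIF2α, which favours translation of the transcription factor ATF4, and ATF4 is known for raising transcripts of amino acid synthesis and transport.

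Liver RNA of male FvB/n mice was hybridised to 16 arrays, 8 per experiment. In the first experiment, mice with high expression of the TTR::Fv2E-PERK transgene, a PERK kinase that can be dimerised by a drug and is driven in liver by the transthyretin promoter, were either untreated (mock-injected in the design text) or given the dimeriser AP20187, with 4 arrays per group and the transgene in both groups. In the second experiment, wildtype mice and mice with the transgene Alb::GC were fed a diet low in fat (LFD) or high in fat (HFD), with 2 arrays for each combination. Alb::GC is known as a GADD34 fragment that promotes eIF2α dephosphorylation, expressed from the albumin promoter. The labels do not state that arrays of a group came from separate animals, so p-values measure the spread between these arrays, which may be technical. One LFD wildtype array (replicate 2) also carries the name of the transgene in one of its labels, and 1 AP20187 array (replicate 4) has a source label that names no treatment. Calls that changed when either of these arrays was left out are named with the limits of each experiment.

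Deposited values are linear ratios near 1, and what the ratio was taken against is not stated, so levels can be compared between arrays of 1 experiment but not between genes. For the same reason the labelled tissue could not be checked from marker levels. Differences are on the log2(ratio + 0.05) scale and understate changes of low values. Only 7 of the 1072 member values were at 0.05 or less, in 3 probe sets of Slc6a14, Slc1a4 and Slc1a3. "Past the threshold" means a limma p, adjusted by Benjamini-Hochberg over all 22626 probe sets, under 0.05, and a gene rose or fell where at least 1 of its probe sets passed in that direction and none in the other. The 3′ to 5′ log2 difference of the control probe sets for beta-actin, a sign of RNA integrity or labelling, ranged from −0.176 to −0.022 on untreated and from −0.037 to 0.154 on AP20187 arrays. That of Gapdh ranged from −0.059 to −0.009 on untreated arrays and from −0.142 to −0.102 on AP20187 arrays, apart from AP20187 replicate 3 at 0.189. In the diet experiment both differences separated all LFD arrays (Gapdh 0.041 to 0.224, beta-actin −0.164 to 0.206) from all HFD arrays (Gapdh −0.314 to −0.148, beta-actin −0.711 to −0.332).

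With AP20187, transporters moved in both directions. The heavy chain Slc3a2 and its light chains Slc7a5 and Slc7a7 rose, as did the neutral amino acid carriers Slc1a4, Slc1a5 and Slc38a2, the glycine transporter Slc6a9 and the cationic amino acid transporter Slc7a2. The taurine transporter Slc6a6, the light chain Slc7a8, Slc38a10, Slc3a1, Slc7a4, Slc6a13 and Slc38a4 fell. Thus 8 genes rose, 7 fell and 28 had no probe set past the threshold. By probe set, 12 of the 67 (17.9%) were higher against 13.7% of all probe sets tested, and 13 (19.4%) were lower against 20.4% of all, so that both shares lay near the background. The median log2 difference over the members was −0.04, and over all probe sets −0.13. At an unadjusted p under 0.05 there were 28 members (41.8%), 13 higher and 15 lower, against 43% of all probe sets.

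**Figure D1:**
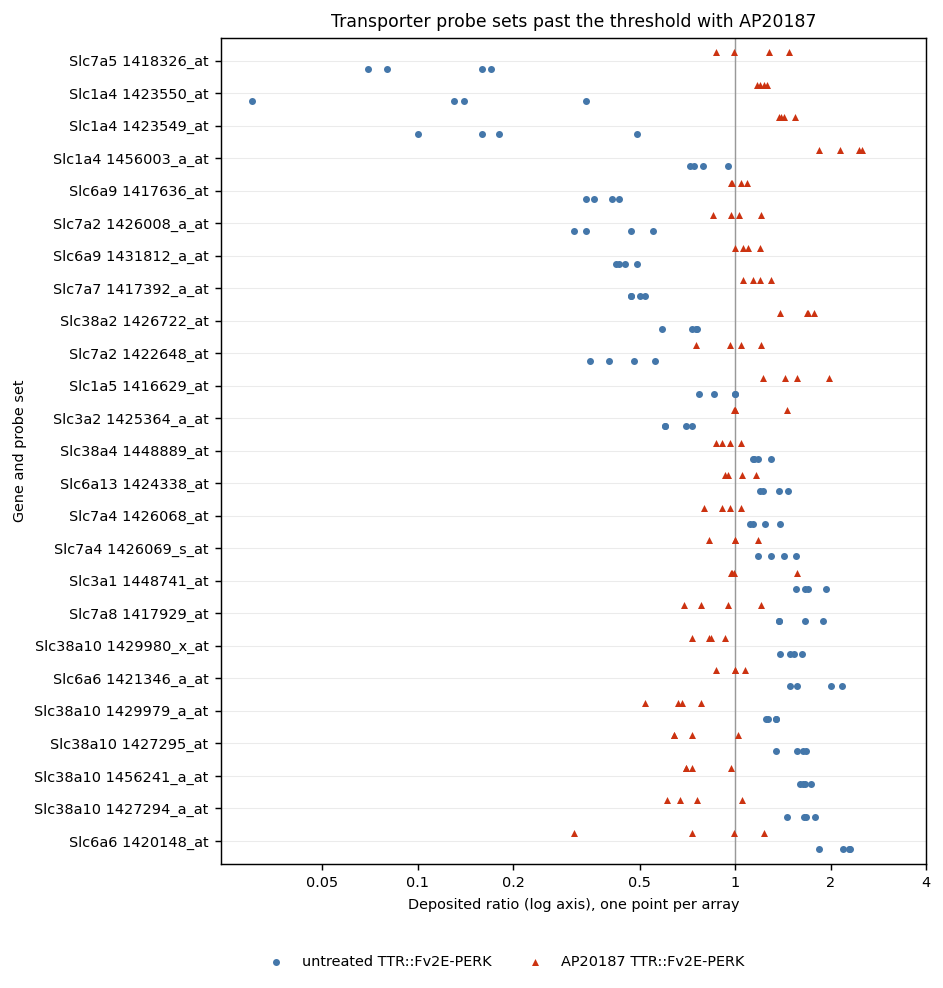
Deposited ratio on a log axis for each of the 25 member probe sets past the threshold with AP20187, 1 point per array (circles untreated, triangles AP20187, 4 arrays each), ordered by log2 difference. The groups overlapped for Slc7a4 1426069_s_at and Slc3a1. They did not overlap for the other 23, which are 34.3% of the 67 members, against 35% of all probe sets.

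Slc7a5 (LAT1), the exchanger of large neutral amino acids such as leucine, had the largest member difference. Its ratios were 0.07, 0.16, 0.08 and 0.17 on the untreated arrays and 0.87, 0.99, 1.48 and 1.28 on the AP20187 arrays. All 4 treated arrays lay above all 4 untreated ones, and the log2 difference was 2.85 ± 0.33 (SE, n = 4 per group; limma adjusted p = 0.000503), a 7.21-fold rise. It ranked 99 from the top of the 22626 probe sets. Its heavy chain Slc3a2 (4F2hc, CD98) rose less. The Slc3a2 ratios were 0.60, 0.60, 0.70 and 0.73 without the drug and 1, 0.99, 1.46 and 1 with it, again with no overlap, although treated replicate 3 stood above the other 3. The log2 difference was 0.70 ± 0.16 (limma adjusted p = 0.0112).

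The other light chains of Slc3a2 moved apart. Slc7a7 (y+LAT1), which exports cationic amino acids in exchange for neutral ones, rose from 0.47, 0.47, 0.52 and 0.50 to 1.14, 1.30, 1.06 and 1.20, a log2 difference of 1.18 ± 0.13 (limma adjusted p = 0.000423). Slc7a8 (LAT2), a second exchanger of neutral amino acids, fell from 1.37, 1.37, 1.66 and 1.89 to 0.69, 0.95, 1.21 and 0.78, a log2 difference of −0.78 ± 0.18 (adjusted p = 0.0124). Neither pair of groups overlapped. Slc7a6 (y+LAT2) was not past the threshold on either probe set, at 0.30 ± 0.40 and −0.96 ± 0.78, and its arrays scattered within both groups. Slc7a10 (Asc-1, small neutral amino acids) stood at 0.10 ± 0.20.

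Slc7a11 (xCT), the light chain that exchanges cystine for glutamate and a known ATF4 target, was not past the threshold. Its ratios were 1.38, 0.93, 1.54 and 0.18 on untreated arrays and 0.64, 1.12, 1.12 and 1.27 on treated arrays. The treated arrays lay inside the untreated range, which was stretched by the single low array, and the difference was 0.32 ± 0.59 (limma adjusted p = 0.728). With this spread the value does not show that the transcript stayed level.

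The second heavy chain, Slc3a1 (rBAT), which pairs with the cystine carrier light chain Slc7a9 among others, went down. Its ratios were 1.93, 1.66, 1.70 and 1.55 without AP20187 and 0.98, 0.99, 1.57 and 0.97 with it. Treated replicate 3 reached into the untreated range, and the log2 difference was −0.61 ± 0.16 (limma adjusted p = 0.0223). The call was lost when any of 5 single arrays was left out (adjusted p 0.0506 to 0.0625). Slc7a9 itself stood at 0.07 ± 0.14. The light chains Slc7a12 and Slc7a13 were not past the threshold either, at −0.24 ± 0.26 for Slc7a12 and at −0.57 ± 0.54 and −0.49 ± 0.58 for the probe sets of Slc7a13.

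Among the cationic amino acid transporters, which carry arginine, lysine and ornithine without a heavy chain, Slc7a2 was the gene that rose. For Slc7a2 1426008_a_at the ratios were 0.34, 0.47, 0.55 and 0.31 untreated and 1.21, 1.03, 0.85 and 0.97 treated, a log2 difference of 1.21 ± 0.23 (limma adjusted p = 0.00467). For Slc7a2 1422648_at they were 0.40, 0.48, 0.56 and 0.35 against 1.21, 0.96, 0.75 and 1.04, a difference of 1.06 ± 0.22 (adjusted p = 0.00702). The third Slc7a2 probe set, 1450703_at, ran from 0.35, 0.86, 0.67 and 0.23 to 1.32, 1.30, 0.62 and 0.99; its groups overlapped, and a difference of 1.03 ± 0.42 did not pass (adjusted p = 0.0941). Thus the 3 probe sets gave like differences but unlike spreads.

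Slc7a1 (CAT1), the widely expressed cationic transporter and another known ATF4 target, showed ratios of 0.98, 0.83, 0.89 and 1.08 untreated and 0.93, 1.16, 0.74 and 1.11 treated. The groups overlapped fully, and the log2 difference was 0.04 ± 0.16 (limma adjusted p = 0.87). Slc7a3 (CAT3) stood at 0.22 ± 0.19. Slc7a4, a relative with no settled substrate, fell slightly on 2 of its 3 probe sets, by 0.38 ± 0.11 for 1426068_at (adjusted p = 0.0303) and by 0.43 ± 0.13 for 1426069_s_at (adjusted p = 0.0316). The third Slc7a4 probe set fell further, from 3.01, 3.91, 4.30 and 0.53 to 1.33, 0.44, 0.75 and 0.17, but the lone low untreated array gave it an SE of 0.76 around −2.00 and it did not pass (adjusted p = 0.079). Both Slc7a4 calls were lost on leaving out single arrays and under quantile normalization, as were the falls of Slc3a1, Slc6a13 and Slc38a4 1448889_at.

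In the Slc1a family the 2 neutral exchangers rose and none of the 4 glutamate transporters passed. Among the family's 12 probe sets 33.3% were higher and 0% lower, against 13.7% and 20.4% of all. Slc1a4 (ASCT1), which exchanges alanine, serine and cysteine, passed on all 3 of its probe sets. Ratios of 1423550_at were 0.34, 0.14, 0.13 and 0.03 untreated and 1.17, 1.26, 1.23 and 1.20 treated, a log2 difference of 2.81 ± 0.46 (limma adjusted p = 0.00232). Those of 1423549_at were 0.49, 0.16, 0.10 and 0.18 against 1.42, 1.39, 1.37 and 1.54, a difference of 2.56 ± 0.38 (adjusted p = 0.00153). On both, treated arrays lay close together and untreated arrays spread several-fold. The third, 1456003_a_at, started near 1: its ratios of 0.72, 0.79, 0.95 and 0.74 rose to 2.14, 1.84, 2.46 and 2.50, a difference of 1.42 ± 0.13 (adjusted p = 0.000174), the smallest adjusted p of any member.

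Slc1a5 (ASCT2), the glutamine exchanger, rose from 1, 0.77, 1 and 0.86 to 1.57, 1.44, 1.97 and 1.22 without overlap, a log2 difference of 0.73 ± 0.15 (limma adjusted p = 0.00771). Slc1a2 (GLT-1), the glutamate importer that hepatocytes near the central vein are known for, had ratios of 0.83, 0.88, 1.19 and 0.86 untreated and 1.18, 0.90, 1.32 and 0.97 treated, overlapping groups and a difference of 0.21 ± 0.16 (adjusted p = 0.382). The other glutamate importers did not pass: Slc1a6 stood at −0.04 ± 0.35, the 3 probe sets of Slc1a1 between −0.60 and 0.53 and the 3 of Slc1a3 between −1.11 and 0.52, with SEs of 0.34 to 0.71 for Slc1a1 and 0.51 to 0.70 for Slc1a3.

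Slc38a members went both ways. Among the family's 13 probe sets 7.69% were higher and 46.2% lower, against 13.7% and 20.4% of all. The lower ones came mostly from the 7 probe sets of Slc38a10. Slc38a2 (SNAT2), the sodium-coupled system A carrier known for its induction when amino acids are scarce, rose from 0.73, 0.59, 0.75 and 0.76 to 1.77, 1.68, 1.38 and 1.69. No array overlapped, and the log2 difference was 1.15 ± 0.12 (limma adjusted p = 0.000264). The system A relative of liver, Slc38a4 (SNAT4), moved the other way and slightly: on 1448889_at it fell from 1.18, 1.14, 1.15 and 1.30 to 1.04, 0.87, 0.96 and 0.91 (−0.32 ± 0.09, adjusted p = 0.0234). The other Slc38a4 probe set, at 1.17, 1.31, 1.21 and 1.34 against 1.18, 0.97, 0.88 and 1.03, gave −0.30 ± 0.10 and narrowly did not pass (adjusted p = 0.055). The first call was lost when any of 4 single arrays was left out (adjusted p 0.0525 to 0.0683). Slc38a3 (SNAT3), the system N carrier of liver glutamine, had ratios of 1.11, 1, 1.06 and 1.14 untreated and 1.02, 0.87, 1.01 and 0.85 treated, a difference of −0.19 ± 0.10 that did not pass (adjusted p = 0.17). Slc38a1 (0.00 ± 0.17) and Slc38a5 (0.75 ± 0.67) did not pass.

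Slc38a10, a less studied member, fell on 5 of its 7 probe sets, with log2 differences from −1.07 to −0.82 and limma adjusted p from 0.000338 to 0.00178. Over these 5 the untreated ratios lay between 1.25 and 1.79 and the treated ratios between 0.52 and 1.05. For 1427294_a_at, for example, 1.65, 1.46, 1.67 and 1.79 became 0.76, 0.67, 1.05 and 0.61. For 1456241_a_at, 1.60, 1.64, 1.73 and 1.66 became 0.73, 0.70, 0.97 and 0.70, and for 1427295_at, 1.67, 1.34, 1.57 and 1.64 became 0.73, 0.64, 1.02 and 0.64. Replicate 3 was the highest treated array on these 3 probe sets (1.05, 0.97 and 1.02, the other treated arrays at most 0.76). On another, 1429979_a_at, it was the lowest (0.52). The remaining probe sets did not pass: 1434617_x_at stood at −0.44 ± 0.34 and 1434616_at, with ratios of at most 0.45 on all 8 arrays, at 0.26 ± 0.33. Probe sets of a gene share its transcripts and are not independent.

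In Slc6a, 1 gene rose, 2 fell and 12 did not pass. Among the family's probe sets 10% were higher and 15% lower, against 13.7% and 20.4% of all. Slc6a9 (GlyT1), the glycine transporter, rose on both probe sets: from 0.41, 0.34, 0.36 and 0.43 to 1.09, 0.98, 1.04 and 0.97 on 1417636_at (1.30 ± 0.17, limma adjusted p = 0.00081), and from 0.45, 0.43, 0.49 and 0.42 to 1.1, 1, 1.20 and 1.06 on 1431812_a_at (1.20 ± 0.15, adjusted p = 0.000628). These were among the tightest groups of any member. Slc6a6 (TauT), which imports taurine, used in bile acid conjugation, fell on 2 of 3 probe sets. On 1420148_at the ratios went from 2.30, 2.18, 1.84 and 2.29 to 0.99, 0.73, 1.23 and 0.31 (−1.49 ± 0.36, adjusted p = 0.0133). On 1421346_a_at they went from 1.49, 2.17, 2 and 1.57 to 1.07, 1, 0.87 and 1 (−0.83 ± 0.14, adjusted p = 0.00238), and the third, 1449751_at, stood at −0.44 ± 0.21 with overlapping groups (adjusted p = 0.161).

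Slc6a13 (GAT2), a GABA and taurine carrier of liver, fell by 0.35 ± 0.10 (adjusted p = 0.0329), from ratios of 1.20 to 1.47 to ratios of 0.93 to 1.16, and lost its call when any of 5 arrays was left out. The betaine carrier Slc6a12 stood at −0.31 ± 0.18. The creatine transporter Slc6a8 stood at 0.12 ± 0.14 and 0.07 ± 0.12 on its probe sets. The transporters of monoamines (Slc6a2, Slc6a3 and Slc6a4), of glycine in neurons (Slc6a5), of neutral amino acids (Slc6a14, Slc6a15, Slc6a17, Slc6a18) and of imino acids (Slc6a20a, Slc6a20b) did not pass; their differences ranged from −0.43 for Slc6a18 to 1.64 for Slc6a14 1420504_at, the latter with an SE of 0.72. Slc43a3, the only Slc43a member measured, stood at 0.27 ± 0.19.

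The beta-actin 3′ to 5′ difference was higher on 3 of the 4 AP20187 arrays than on any untreated array, while the Gapdh difference was lower on 3 of the 4. With the beta-actin 3′ to 5′ difference as a covariate in the limma fit, all 25 called members kept their direction, but 8 stayed past the threshold: 2 probe sets of Slc1a4, 1 of Slc6a9, Slc7a7, Slc38a2, Slc7a8 and 2 of Slc38a10. Slc7a5 then stood at 2.06 (adjusted p = 0.0696) and Slc3a2 at 0.47 (adjusted p = 0.371). Over all probe sets the same covariate reduced calls from 7724 to 1782, so the loss was not particular to the transporters. With the Gapdh difference as covariate all 25 calls held. Of the 25, 20 held whichever single array was left out. Slc3a1, Slc38a4, Slc6a13 and both Slc7a4 probe sets did not; without AP20187 replicate 4, the array with the unclear label, all 5 of these were lost, the 20 others held, and lower members numbered 8 in place of 13.

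The supplied RefSeq promoter windows (GRCm38.p6; 250 bases before to 50 after a gene start) were searched for the letters TGATGNAA or, on the opposite strand, TTNCATCA, the core of the composite C/EBP-ATF element to which ATF4 binds. Of the 43 member genes 28 had a window (47 windows in all), and 3 of these genes held the motif, Slc1a4, Slc7a7 and Slc7a11. That is 10.7% of the members with a window against 4.51% of 27025 genes, and 4 of 47 windows (8.51%) against 3.97% of 32851. The motif stood in 2 of the 5 genes with a window that rose with AP20187, in 0 of 5 that fell and in 1 of 18 that did not pass. The windows are printed because they belong to risen genes (Slc1a4, Slc7a7) and to the known ATF4 target that did not pass (Slc7a11). The Slc1a4 stretch is chr11:20332704-20332833, the Slc7a7 stretch chr14:54417935-54418104 and the Slc7a11 stretch chr3:50443614-50443733, all on the minus strand and written 5′ to 3′ along the gene, with the matches in capitals.
Slc1a4: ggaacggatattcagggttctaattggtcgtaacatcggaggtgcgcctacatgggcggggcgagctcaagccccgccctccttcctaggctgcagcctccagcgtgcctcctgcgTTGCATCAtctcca
Slc7a7: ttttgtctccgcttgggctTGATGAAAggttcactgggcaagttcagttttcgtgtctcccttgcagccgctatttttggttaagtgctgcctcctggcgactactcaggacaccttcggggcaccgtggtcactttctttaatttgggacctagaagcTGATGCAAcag
Slc7a11: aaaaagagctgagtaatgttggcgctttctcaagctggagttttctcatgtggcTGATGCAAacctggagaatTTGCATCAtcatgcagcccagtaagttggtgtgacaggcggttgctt
Counted from the gene start, the Slc7a11 matches lay at bases −66 to −59 and −47 to −40 on opposite strands, the Slc1a4 match spanned bases −4 to 4, and the Slc7a7 matches lay at −141 to −134 and −1 to 7. A match is a description of these letters, and its absence elsewhere says only that they are not in the window searched.

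Between the diets, averaged over both genotypes, one transporter stood out by size: Slc7a2 rose on HFD on all 3 of its probe sets, by 5.66-fold on 1422648_at. Slc1a5, Slc1a2 and single probe sets of Slc6a6, Slc38a4 and Slc38a10 rose as well. Slc1a3, Slc1a1, Slc6a14, Slc6a17, Slc7a1, Slc6a3, Slc7a4, Slc7a3 and Slc6a18 fell. In all 6 genes rose, 9 fell and 28 did not pass. By probe set 8 (11.9%) were higher, against 13.5% of all probe sets, and 10 (14.9%) lower, against 14% of all, so that again both shares lay near the background. At an unadjusted p under 0.05 there were 26 members (38.8%), 10 higher and 16 lower, against 42.1% of all probe sets. Within wildtype alone 3 members (4.48%) were higher, against 7.97% of all probe sets, and 4 (5.97%) lower, against 6.63%. Within Alb::GC alone 4 (5.97%) were higher, against 4.64%, and 2 (2.99%) lower, against 2.13%.

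**Figure D2:**
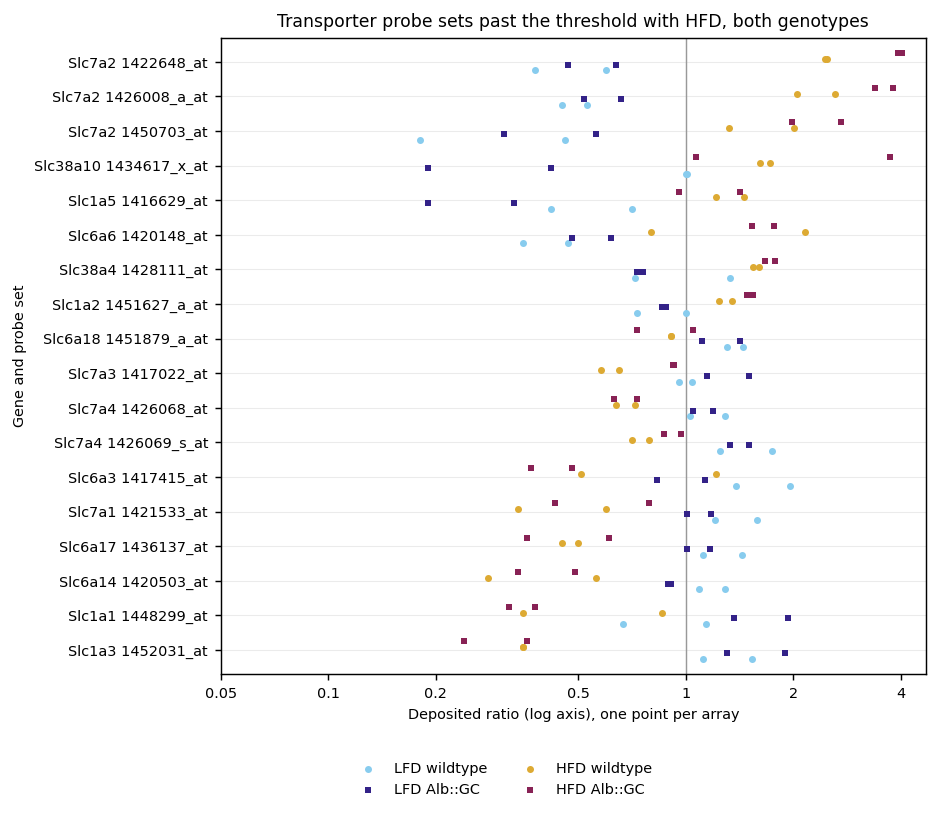
Deposited ratio on a log axis for each of the 18 member probe sets past the threshold between HFD and LFD over both genotypes, 1 point per array (circles wildtype, squares Alb::GC, 2 arrays per group), ordered by log2 difference. All HFD arrays lay above all LFD arrays on the 3 Slc7a2 probe sets, with HFD ratios from 1.32 to 4.03 and LFD ratios from 0.18 to 0.66.

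Ratios of a diet are given for both wildtype arrays first and then for both Alb::GC arrays. For Slc7a2 1422648_at they were 0.60, 0.38, 0.47 and 0.64 on LFD and 2.48, 2.45, 4.03 and 3.93 on HFD. For Slc7a2 1426008_a_at they were 0.53, 0.45, 0.52 and 0.66 on LFD and 2.05, 2.62, 3.40 and 3.80 on HFD. For Slc7a2 1450703_at they were 0.18, 0.46, 0.31 and 0.56 against 2.01, 1.32, 1.98 and 2.72. All 4 HFD arrays stood above all 4 LFD arrays on each. The log2 differences were 2.50 ± 0.16, 2.33 ± 0.13 and 2.32 ± 0.34 (limma adjusted p = 0.00118, 0.000987 and 0.00736), and the 3 probe sets also passed within each genotype (wildtype 2.25, 2.14 and 2.29; Alb::GC 2.75, 2.52 and 2.34). The Alb::GC arrays had the higher HFD ratios on 1422648_at and 1426008_a_at, but the genotype difference on HFD did not pass (0.68 ± 0.23 and 0.62 ± 0.19, adjusted p = 0.35 and 0.296).

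Slc1a5 had LFD ratios of 0.71, 0.42, 0.33 and 0.19 and HFD ratios of 1.22, 1.46, 0.96 and 1.42. Every HFD array lay above every LFD array, and the log2 difference was 1.61 ± 0.28 (limma adjusted p = 0.0123). It passed within Alb::GC (2.01 ± 0.40, adjusted p = 0.0407) and not within wildtype (1.21 ± 0.40, adjusted p = 0.0905). Slc1a2, the pericentral glutamate importer, rose from 0.73, 1, 0.86 and 0.88 to 1.24, 1.35, 1.54 and 1.49, a difference of 0.67 ± 0.12 (adjusted p = 0.0133).

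Other rises rested on 1 probe set of several. Slc6a6 1420148_at went from 0.35, 0.47, 0.62 and 0.48 to 0.80, 2.16, 1.53 and 1.77 (1.55 ± 0.32, limma adjusted p = 0.0194), while its other probe sets were at 0.72 ± 0.30 and 0.58 ± 0.27 and did not pass. Slc38a4 1428111_at went from 1.33, 0.72, 0.73 and 0.76 to 1.60, 1.54, 1.78 and 1.67 (0.91 ± 0.19, adjusted p = 0.0187), while 1448889_at, at 1.03, 0.90, 0.80 and 0.88 against 0.91, 1.04, 1.02 and 1.06, stood at 0.15 ± 0.12. Slc38a10 1434617_x_at went from 1.01, 1, 0.42 and 0.19 to 1.62, 1.72, 3.73 and 1.07 (1.66 ± 0.41, adjusted p = 0.0308); the gene's 6 other probe sets ranged from −0.99 to 0.36 and none passed. For these genes the probe sets thus did not give 1 common difference.

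Slc1a3 1452031_at fell most: its ratios were 1.12, 1.53, 1.31 and 1.90 on LFD and 0.35, 0.35, 0.36 and 0.24 on HFD. The groups did not overlap, and the log2 difference was −2.00 ± 0.24 (limma adjusted p = 0.00448), with passes within wildtype (−1.77) and Alb::GC (−2.24). The other Slc1a3 probe sets did not pass and opposed each other, at −0.73 ± 0.64 for 1426340_at and 0.69 ± 0.28 for 1426341_at, where all HFD arrays (0.53 to 0.68) lay above all LFD arrays (0.27 to 0.42). Slc1a1 fell on 1448299_at only, from 1.14, 0.67, 1.37 and 1.94 to 0.86, 0.35, 0.38 and 0.32 (−1.35 ± 0.34, adjusted p = 0.0318). Its other 2 probe sets were at −0.14 ± 0.34 and −0.04 ± 0.42.

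Slc7a1 fell where Slc7a2 rose. Its ratios were 1.21, 1.58, 1.18 and 1.01 on LFD and 0.34, 0.60, 0.79 and 0.43 on HFD, without overlap, a log2 difference of −1.18 ± 0.27 (limma adjusted p = 0.0257). Slc7a3 fell from 1.04, 0.96, 1.5 and 1.15 to 0.65, 0.58, 0.93 and 0.92 (−0.57 ± 0.13, adjusted p = 0.0268). Slc7a4 fell on 1426069_s_at from 1.25, 1.75, 1.33 and 1.5 to 0.79, 0.71, 0.87 and 0.97 (−0.77 ± 0.14, adjusted p = 0.0124), and on 1426068_at from 1.03, 1.29, 1.19 and 1.05 to 0.64, 0.72, 0.63 and 0.73 (−0.70 ± 0.15, adjusted p = 0.0196), while 1436776_x_at stood at −0.72 ± 0.39. Thus Slc7a2 was the one cationic transporter gene of the 4 that was higher on HFD.

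Of the Slc6a members, Slc6a17, a vesicular carrier of neutral amino acids in neurons, fell from 1.12, 1.44, 1.01 and 1.17 to 0.45, 0.50, 0.36 and 0.61 (−1.23 ± 0.22, limma adjusted p = 0.0133). Slc6a14 1420503_at fell from 1.09, 1.29, 0.91 and 0.89 to 0.56, 0.28, 0.49 and 0.34 (−1.26 ± 0.28, adjusted p = 0.0225); its second probe set, 1420504_at, reached values at the lower limit and stood at −1.10 ± 0.85. Slc6a3, the dopamine transporter, fell from 1.38, 1.96, 0.83 and 1.13 to 1.22, 0.51, 0.48 and 0.37 (−1.06 ± 0.30, adjusted p = 0.0455), with overlap. Slc6a18 fell from 1.31, 1.45, 1.42 and 1.11 to 0.91, 0.91, 0.73 and 1.05 (−0.53 ± 0.15, adjusted p = 0.0421). Apart from these 4 genes and the Slc6a6 rise, no Slc6a member passed; Slc6a20a, at −1.73 ± 0.64, was the furthest from 0 (adjusted p = 0.0889).

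Slc7a5, the strongest riser with AP20187, was lower on HFD without passing. Its LFD ratios were 3.35, 0.84, 1.40 and 1.66, and its HFD ratios 0.40, 0.46, 0.96 and 0.65. The low LFD array was replicate 2 of wildtype, whose labels conflict; the high one was replicate 1. The log2 difference was −1.38 ± 0.42 (limma adjusted p = 0.0522), and it passed without LFD wildtype replicate 2 (−1.87, adjusted p = 0.00834) or replicate 1 (−0.90, adjusted p = 0.0395). Slc3a2 had LFD ratios of 1.42, 1.08, 1.36 and 1.05 and HFD ratios of 0.95, 0.98, 1.02 and 0.91, a difference of −0.32 ± 0.14 that did not pass (adjusted p = 0.127) although the diets did not overlap.

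Several other members described with AP20187 did not pass between diets over both genotypes. Slc38a2 ran at 1.23, 0.68, 0.68 and 1.29 on LFD and 0.86, 0.92, 1.21 and 1.08 on HFD (0.11 ± 0.26). Slc38a3 ran at 1.37, 0.96, 0.86 and 0.84 against 1.02, 1.1, 1.27 and 1.36 (0.24 ± 0.13, limma adjusted p = 0.205). Slc7a11 ran at 0.46, 1.55, 1.27 and 1.53 against 0.27, 0.83, 0.54 and 0.63 (−0.98 ± 0.47, adjusted p = 0.163), with 1 low LFD array. Slc6a9 stood at 0.25 ± 0.11 and 0.11 ± 0.20, Slc7a7 at −0.17 ± 0.14, Slc7a8 at 0.02 ± 0.21 and Slc3a1 at 0.41 ± 0.18. The light chains Slc7a6, Slc7a9, Slc7a10, Slc7a12 and Slc7a13 ranged from −1.11 for Slc7a13 1449301_at to 0.00 for Slc7a9.

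The diet calls carry limits of number and of RNA integrity. Of the 18, 8 held whichever of the 8 arrays was left out: the 3 Slc7a2 probe sets, Slc1a5, Slc1a2, Slc1a3 1452031_at, Slc6a17 and Slc7a4 1426069_s_at. Without LFD wildtype replicate 2, the array whose labels conflict, 11 of the 18 held. The calls lost over both genotypes were those of Slc7a3 (adjusted p = 0.0508), Slc7a4 1426068_at (0.0521), Slc6a14 (0.064), Slc7a1 (0.0746), Slc38a10 (0.0776), Slc6a18 (0.104) and Slc6a3 (0.125), and that of Slc7a5 was gained. Within wildtype all 4 lower calls were lost without this array, those of Slc7a4 1426069_s_at (adjusted p = 0.0853), Slc1a3 (0.0993), Slc6a17 (0.145) and Slc7a1 (0.168). Slc7a5 (−2.83, adjusted p = 0.0194), Slc1a2 (0.78, adjusted p = 0.0459) and Slc6a9 1431812_a_at (1.14, adjusted p = 0.0475) then passed within wildtype. Leaving out a diet array leaves its group with a lone array, which the fit assumes to vary like the other groups. Within single genotypes no member call held through every left-out array; for the 3 Slc7a2 probe sets the differences then lay between 1.72 and 2.95 and the highest adjusted p was 0.17. With the Gapdh or the beta-actin 3′ to 5′ difference as a covariate, added after seeing the data, 0 of the 22626 probe sets passed between diets in the limma fit (1699 and 3017 at an unadjusted p under 0.05, 9 and 12 of them members), and the median SE of members rose from 0.235 to 0.903 and 0.591. Slc7a2 1422648_at then stood at 2.33 and 2.51 and 1426008_a_at at 2.57 and 2.01, whereas 1450703_at stood at 0.35 and 0.77. Diet and this measure of RNA integrity separate the same arrays and cannot be told apart beyond those values.

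**Figure D3:**
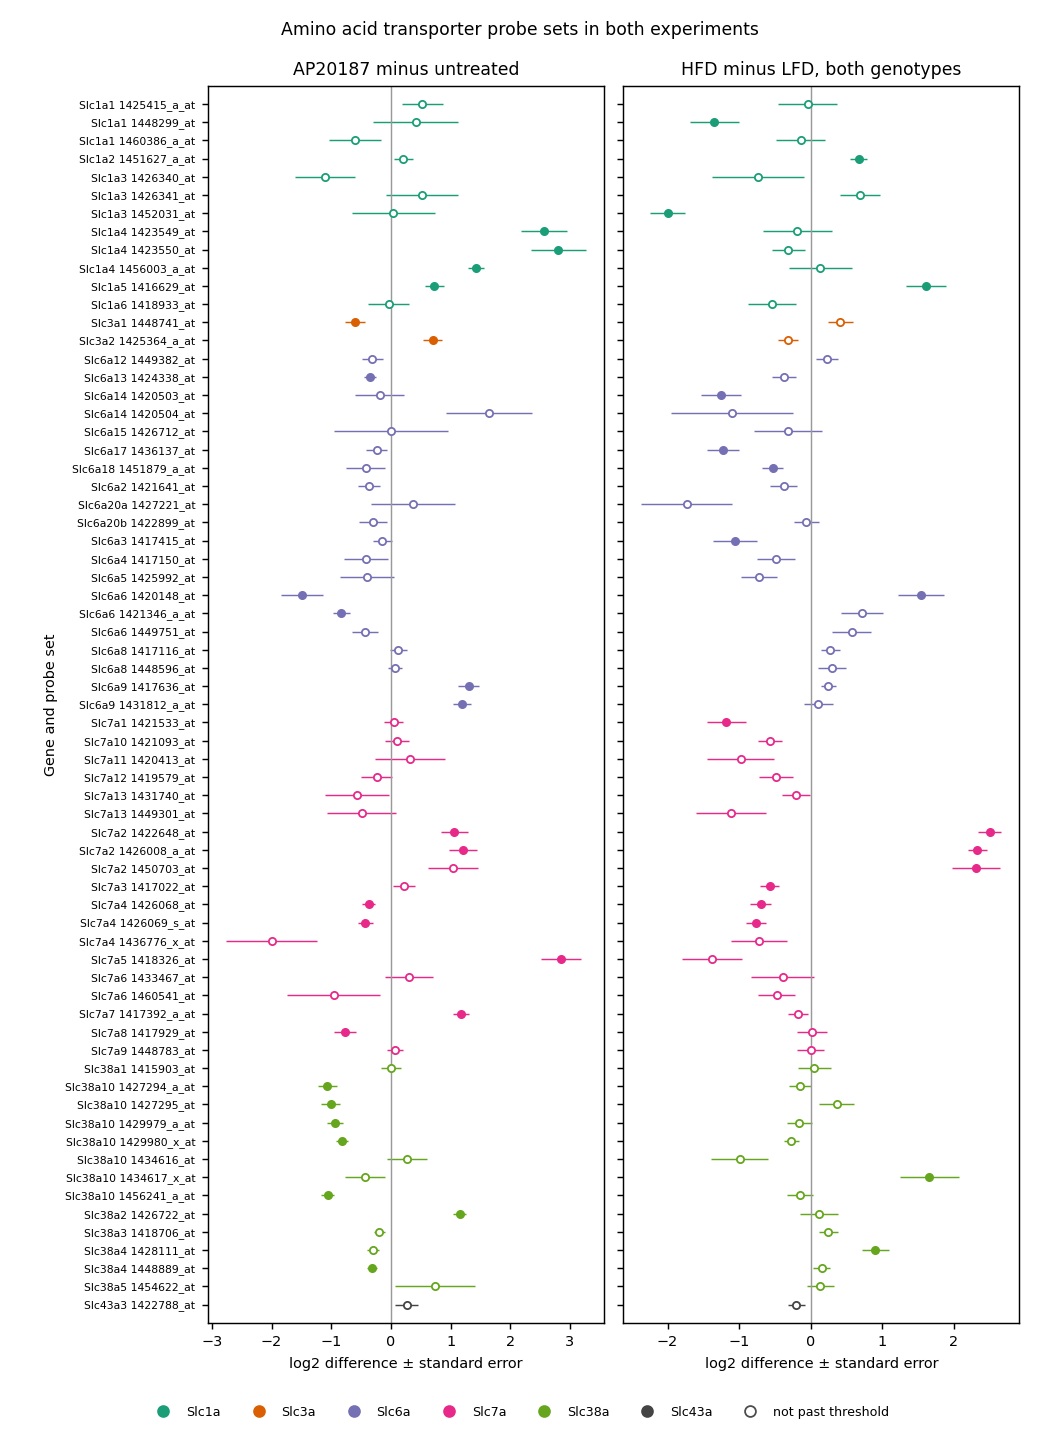
log2 difference ± SE of all 67 member probe sets, coloured by family, with AP20187 (left panel) and on HFD over both genotypes (right panel); filled points passed the threshold. Slc7a5 and Slc1a4 reached 2.85 and 2.81 on the left, Slc7a2 2.50 on the right.

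No member passed between Alb::GC and wildtype. On LFD 0 probe sets of the whole array passed in either direction (0% higher, 0% lower) by limma, while 6 members (8.96%) and 10.3% of all probe sets had an unadjusted p under 0.05. On HFD 0 members passed, against 0.0354% of all probe sets higher and 0.0972% lower; 6 members (8.96%) and 11.2% of all had an unadjusted p under 0.05, and the lowest adjusted p was that of the glutamine carrier Slc38a5. On HFD its wildtype ratios were 0.52 and 0.41 and its Alb::GC ratios 1.56 and 2.47, a log2 difference of 1.98 ± 0.27 (adjusted p = 0.0719); on LFD they were 0.68 and 0.63 against 1.29 and 1.06.

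For the diet by genotype interaction 0 probe sets passed in either direction (0% and 0%), with 5 members (7.46%) and 11.1% of all probe sets at an unadjusted p under 0.05. The lowest adjusted p was that of Slc1a4 1423550_at: its ratios on HFD were 1.03 and 1.01 in wildtype, above 0.53 and 0.36 on LFD, and 0.28 and 0.25 in Alb::GC, below 1.04 and 0.99 on LFD. The fall within Alb::GC passed (−1.76 ± 0.32, limma adjusted p = 0.0348), the rise within wildtype did not (1.13 ± 0.32, adjusted p = 0.0652) and the interaction of −2.89 ± 0.46 did not (adjusted p = 0.142). The 2 other Slc1a4 probe sets repeated it in part or not at all. On 1423549_at the Alb::GC arrays were also lower on HFD without overlap, while the wildtype arrays of the diets overlapped. On 1456003_a_at the diets overlapped in both genotypes. Neither probe set passed within a genotype or for the interaction. Ratios of 1423549_at were 0.58, 0.68, 0.56 and 0.79 on LFD and 0.41, 1.93, 0.29 and 0.40 on HFD, and those of 1456003_a_at were 1.73, 1.13, 1.17 and 0.25 against 1.20, 0.90, 0.91 and 0.92, wildtype first in each.

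The experiments share no arrays, so their values can be set side by side. Of the 67 probe sets, 3 were higher in both (4.48%, against 3.36% of all tested): 2 of Slc7a2 and Slc1a5. The 2 Slc7a4 probe sets were lower in both (2.99%, against 3.98%). Slc6a6 1420148_at was lower with AP20187 and higher on HFD, 1.49% of members against 2.54% of all. No member was higher with AP20187 and lower on HFD, which held for 1.07% of all. Of the remaining members 9 were higher with AP20187 only (13.4%, against 9.31% of all) and 10 lower (14.9%, against 13.9%). On HFD only, 4 were higher (5.97%, against 7.63%) and 8 lower (11.9%, against 8.97%). The other 30 passed in neither (44.8%, against 49.3%). These shares lay near those of all probe sets.

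**Figure D4:**
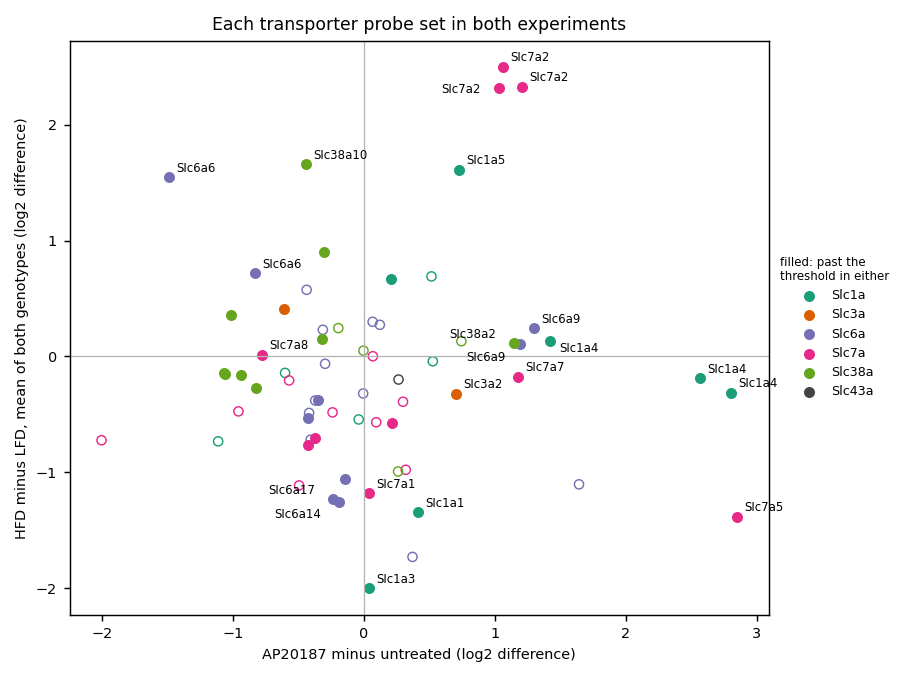
log2 difference with AP20187 (horizontal) against log2 difference on HFD over both genotypes (vertical) for the 67 member probe sets, coloured by family and filled where either passed; both axes are on the log2(ratio + 0.05) scale. Slc7a2 and Slc1a5 lie at upper right, Slc7a5 and Slc1a4 at right near or under 0 on the vertical axis, and Slc6a6 at upper left.

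Genes of neighbouring pathways were taken from lists, and some genes, among them Chac1, Gpt2, Aldh18a1, Sesn2 and Ddit4, stood on several lists. Of 19 ATF4 target genes outside the transporters, 16 rose with AP20187, 1 fell and 2 did not pass. Of their 43 probe sets 60.5% were higher and 4.65% lower, against 13.7% and 20.4% of all. Their median log2 difference was 1.21, against −0.13 for all. Asns, which makes asparagine, rose by 3.40 and 1.69 on its probe sets, the serine synthesis gene Psat1 by 4.07 and 3.75, and Chac1, which degrades glutathione, by 3.17. Beside these, Slc7a5 rose by 2.85 and Slc1a4 by 2.81, 2.56 and 1.42 on its probe sets, whereas Slc7a11 and Slc7a1 did not pass. On HFD 6 of the 19 rose, 4 fell and 9 did not pass. Among their probe sets 23.3% were higher and 11.6% lower, against 13.5% and 14% of all. Chac1 rose there as well (0.69 ± 0.17). Asns was lower on 1 probe set (−0.63 ± 0.14), while its other stood at 1.77 ± 0.63 without passing. Psat1 did not pass.

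Of 24 genes of amino acid sensing and mTORC1, the kinase complex that responds to amino acids brought in by such carriers, 5 rose with AP20187, 8 fell and 11 did not pass; by probe set 18.2% were higher and 25% lower, near the shares of all probe sets. Negative regulators of mTORC1 went both ways: Sesn2 (3.34 and 2.56) and Ddit4 (4.06) rose, and Sesn3 (−1.24) and Tsc2 (−1.17) fell. Mtor itself and the lysosomal scaffold genes Lamtor1, Lamtor2, Lamtor4 and Lamtor5 fell as well. On HFD 3 rose, 5 fell, 3 had probe sets passing both ways and 13 did not pass. By probe set 18.2% were higher and 20.5% lower, against 13.5% and 14% of all. The mTOR inhibitor Deptor rose on all 3 of its probe sets (2.21, 1.58 and 1.42). Rheb (0.45) and 1 probe set of Tsc1 (0.61) were higher as well. Lamtor1, Lamtor2, Lamtor3, Lamtor4 and Rraga fell, and Lamtor5, Seh1l and Sesn1 had probe sets passing both ways. Of 9 amino acid and peptide carriers of other SLC families and the lysosome, the lysosomal histidine and peptide carrier Slc15a4 rose with AP20187 (1.14 ± 0.13, limma adjusted p = 0.000479). The peptide transporter Slc15a2 fell on 1 of 2 probe sets (−1.01 ± 0.14) and 7 did not pass. By probe set 8.33% were higher and 8.33% lower, against 13.7% and 20.4% of all.

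Of 14 genes that make or use glutathione from cystine and glutamate, the substrates of Slc7a11, 2 rose with AP20187, 5 fell and 7 did not pass. By probe set 9.52% were higher and 38.1% lower, against 13.7% and 20.4% of all. Gclc, the catalytic subunit of the first step, fell by 1.16 and 1.34 on its probe sets and Gsr, glutathione reductase, by 1.23 and 1.25. On HFD 3 rose and 11 did not pass (14.3% of probe sets higher and 0% lower, against 13.5% and 14% of all). Of 11 genes of liver glutamine and glutamate metabolism, 4 rose, 3 fell and 4 did not pass with AP20187. By probe set 35% were higher and 25% lower, against the same 13.7% and 20.4% of all. On HFD 5 of them rose, 1 fell and 5 did not pass (35% of probe sets higher and 5% lower, against 13.5% and 14% of all). Glutamine synthetase Glul rose on 1 of 2 probe sets (0.64 ± 0.15) and Oat, ornithine aminotransferase, by 0.89 ± 0.15. These were also the 2 of 9 pericentral marker genes that rose on HFD, while the other 7 did not pass.

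Markers of liver cells moved beside the transporters. With AP20187, 9 of 10 hepatocyte marker genes fell, 6 of 10 macrophage, 5 of 8 stellate and fibroblast and 3 of 8 endothelial genes fell, and none of these rose; by probe set 94.1%, 50%, 61.5% and 33.3% of these lists were lower, against 20.4% of all probe sets. The mean log2 level of hepatocyte marker probe sets ran from 0.59 to 0.74 on untreated arrays and from −0.23 to 0.08 on AP20187 arrays; that of macrophage markers ran from 0.30 to 0.36 and from −0.28 to 0.14, and that of stellate and fibroblast markers from 0.61 to 0.96 and from −0.25 to −0.05. Of the other lists, 4 of 6 periportal genes fell and 2 rose with AP20187, and 3 of 9 pericentral genes fell and 1 rose. By probe set 57.1% and 25% of these 2 lists were lower and 28.6% and 16.7% higher, against 20.4% and 13.7% of all. Of 5 exocrine pancreas genes 1 fell (12.5% of probe sets), 1 of 4 cholangiocyte and 1 of 3 erythroid genes rose (20% of probe sets each), and no lymphocyte or neutrophil gene passed. On HFD 4 of 10 hepatocyte marker genes fell and 1 rose (41.2% of probe sets lower, against 14% of all). In the same comparison 3 of 6 periportal genes fell and 1 rose, and 3 of 5 exocrine pancreas and 2 of 8 stellate and fibroblast genes fell. By probe set these 3 lists were 42.9%, 37.5% and 15.4% lower. Rises on HFD were seen in 2 of 10 macrophage, 2 of 9 pericentral (Glul and Oat), 2 of 8 endothelial and 2 of 7 lymphocyte genes. None of these lists had a gene that fell. By probe set they were 14.3%, 16.7%, 25% and 11.1% higher, against 13.5% of all, so that all but the endothelial share lay near the background. Of 3 erythroid genes 2 rose and 1 fell, of 5 neutrophil genes 1 rose and 1 fell, and of 4 cholangiocyte genes 1 fell and 1 had probe sets passing both ways. Each of these lists had 5 probe sets, of which 40%, 20% and 20% were higher and 20%, 20% and 40% lower. The hepatocyte mean ran from −0.051 to 0.305 on LFD and from −0.089 to 0.015 on HFD arrays. The part of these shifts in the transporter results was not tested. In whole liver, fewer cells of a type and less RNA per cell cannot be told apart.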

How the data were processed

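The deposited values are linear ratios per probe set and array, 16 arrays in all, given to 2 decimals with array medians of 0.94 to 1.02; per the labels, biotin-labelled cRNA was hybridised to single-sample Affymetrix arrays. How probe sets were summarised, and what the authors took each ratio against, is not stated. Of 22690 probe sets, 64 controls were left out; 20380 of the rest had 1 gene symbol, 1555 none and 691 several, and none of the last matched the rule for members. Array annotation can be old. Replicates of a group correlated at 0.442 to 0.658, with 1.44% to 2.46% equal values, so no array was taken as a duplicate.

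Ratios were transformed as log2(ratio + 0.05), and each experiment of 8 arrays was fitted alone with limma 3.58.1 in R 4.3.3 (lmFit, eBayes with trend; 6 and 4 residual degrees of freedom). P-values were adjusted by Benjamini-Hochberg over 22626 probe sets, with a threshold of 0.05. The fit was tested on simulated data. Files hold no counts, so the number of arrays limits precision.

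All members are named. Array values are given for members past the threshold with a log2 change of at least 1 or in a diet comparison, and for all probe sets of 12 genes of the amino acid response and liver. The members, gene lists and this rule were chosen with earlier results of these data known.

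Alternatives were offsets of 0.01 and 0.2, quantile or median normalization, a filter on low values, no trend, 1 fit of all 16 arrays, leaving out each array, and the Gapdh or beta-actin 3′ to 5′ difference as a covariate. For the diet arrays the covariates were added after seeing the data. The Atf4 knockouts named in the design text were not analysed here.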

Additional observations from a re-analysis of the deposited data

Results flagged for a closer look

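In 5 of 62 groups of 4 arrays examined, 1 array stood apart from the other 3 by more than Dixon's critical value. Chance gives about 1 group in 20. Groups measured on the same arrays are not independent, and the share over all probe sets was not examined, so the count cannot be read as an excess. AP20187 replicate 3 was the array apart for Slc3a2 (ratio 1.46), for Slc3a1 (1.57) and for Slc38a10 1456241_a_at (0.97), and it also had the highest Gapdh 3′ to 5′ difference of the TTR::Fv2E-PERK arrays (0.189). Untreated replicate 2 was low for Slc38a2 (0.59) and untreated replicate 3 was high for Slc1a2 (1.19).

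For 4 probe sets every HFD array lay on one side of the LFD arrays in wildtype and on the other side in Alb::GC. That is 5.97% of the members, against 4.86% of all probe sets, so the count lay near the background. The limma interaction did not pass for any of them: it was −2.89 for Slc1a4 1423550_at (adjusted p = 0.142), −1.26 for Slc6a9 1431812_a_at (adjusted p = 0.351), 1.18 for Slc38a5 (adjusted p = 0.345) and 0.64 for Slc43a3 (adjusted p = 0.425).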

How the results depend on the processing

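With AP20187, the beta-actin covariate left 5 members higher and 3 lower, and quantile normalization left 8 lower. Leaving out single arrays gave 12 to 13 higher and 8 to 12 lower. Quantile normalization moved the share of all calls that were higher from 40.2% to 49.8% and the median over all probe sets from −0.133 to −0.059.

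Between diets, both covariates added after seeing the data left 0 members higher and 0 lower within wildtype, within Alb::GC and over both; with the Gapdh covariate, Slc7a2 1450703_at within wildtype turned to −0.11 (limma adjusted p = 0.991) and Slc6a18 over both genotypes to 0.27 (adjusted p = 0.921). With all 16 arrays in 1 fit, 8 members were higher within wildtype, and 8 higher and 5 lower within Alb::GC; quantile normalization left 1 lower within wildtype. Leaving out single arrays gave 0 to 5 higher and 0 to 1 lower within wildtype, 0 to 2 higher and 0 lower within Alb::GC, and 6 to 7 higher and 3 to 7 lower over both. Lower members over both numbered 3 without LFD Alb::GC replicate 1. The causes were not tested.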
